A study of Rattus norvegicus with 20 samples.

Results

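The genes described here code for the subunits of the proteasome and for the proteins that assemble, activate or inhibit it, as measured in rat liver after 4 diets. They were found by name: every probe set with a single gene symbol starting Psma, Psmb, Psmc, Psmd, Psme, Psmf or Psmg was taken, and where a gene had several, the one whose mean over all 20 arrays was highest stood for it. This gave 46 of the 13462 genes measured, of which 44 code for a subunit or a factor of the proteasome. The other 2, Psmc3ip and Psme3ip1, share only the start of the symbol and are kept apart. The 46 genes had 59 tested probe sets, and 8 genes had more than 1. Psmb6 and Psme3 were represented only by probe sets with several symbols and were not analysed here.

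The rats were male Sprague-Dawley, 4 weeks old on arrival, and ate their diet for 21 days after 5 days of adaptation. The 1:1 high-isoflavone diet held casein and soybean of the isoflavone-rich cultivar Yukipirika in equal parts, the 3:1 high-isoflavone diet held casein and Yukipirika at 3 parts to 1, and the conventional diet held casein and soybean of the cultivar Fukuyutaka in equal parts. The casein diet held 200 g per kg of casein, the main milk protein, and no soybean is named for it. The groups had 8, 7, 7 and 7 rats in that order, and from each group the 5 rats of average food intake were hybridised, 1 array per rat. No rat carried a genetic change or a drug that the labels name, and isoflavones are plant compounds that bind estrogen receptors.

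The proteasome is the cell's main machine for breaking down proteins tagged with ubiquitin. Its barrel-shaped 20S core is built of stacked rings of alpha subunits, which form the gate, and beta subunits, some of which cut the protein chain. The 19S cap recognises tagged proteins, unfolds them with its ring of ATPases and feeds them into the core. In cells exposed to interferon, and in immune cells, Psmb8, Psmb9 and Psmb10 take the places of Psmb5, Psmb6 and Psmb7 and make the immunoproteasome, which yields peptides for presentation on class I molecules. In liver the proteasome takes part in the turnover of metabolic enzymes, and hepatocytes carry mainly the standard form.

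The promoters of 4 genes are shown first, because Psma2 was the single member called in any comparison and because Psmb8, Psmb9 and Psmb10 were, as a class, the most variable between rats of 1 diet. Each is the RefSeq sequence of rat assembly GRCr8 from 250 bases before to 50 bases after the annotated start, written 5′ to 3′ on the strand of the gene. Capitals mark CCAAT, or ATTGG where it reads on the other strand, and the core of the interferon-stimulated response element, which is GAAA, any 2 bases and GAAA again, or TTTC, any 2 bases and TTTC on the other strand. Psma2 lies on the minus strand at chr17:55260392-55260691, Psmb8 on the minus strand at chr20:4656982-4657281, Psmb9 on the plus strand at chr20:4668750-4669049 and Psmb10 on the minus strand at chr19:50743243-50743542.
Psma2: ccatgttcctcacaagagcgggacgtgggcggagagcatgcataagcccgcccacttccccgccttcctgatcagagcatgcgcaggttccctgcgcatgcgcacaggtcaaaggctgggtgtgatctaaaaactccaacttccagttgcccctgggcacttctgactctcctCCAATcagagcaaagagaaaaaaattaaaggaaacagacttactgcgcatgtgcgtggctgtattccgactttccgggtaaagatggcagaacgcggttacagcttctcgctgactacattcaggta
Psmb8: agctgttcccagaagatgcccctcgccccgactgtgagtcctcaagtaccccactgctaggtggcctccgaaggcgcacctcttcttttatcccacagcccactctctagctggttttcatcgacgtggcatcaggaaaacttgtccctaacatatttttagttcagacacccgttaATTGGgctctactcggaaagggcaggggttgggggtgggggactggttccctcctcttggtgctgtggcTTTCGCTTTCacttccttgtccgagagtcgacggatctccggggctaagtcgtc
Psmb9: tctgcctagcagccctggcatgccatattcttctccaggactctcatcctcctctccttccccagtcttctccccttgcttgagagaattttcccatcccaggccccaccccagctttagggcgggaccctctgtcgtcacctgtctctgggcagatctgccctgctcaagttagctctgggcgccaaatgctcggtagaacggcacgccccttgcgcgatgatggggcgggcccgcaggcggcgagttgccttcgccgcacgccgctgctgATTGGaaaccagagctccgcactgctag
Psmb10: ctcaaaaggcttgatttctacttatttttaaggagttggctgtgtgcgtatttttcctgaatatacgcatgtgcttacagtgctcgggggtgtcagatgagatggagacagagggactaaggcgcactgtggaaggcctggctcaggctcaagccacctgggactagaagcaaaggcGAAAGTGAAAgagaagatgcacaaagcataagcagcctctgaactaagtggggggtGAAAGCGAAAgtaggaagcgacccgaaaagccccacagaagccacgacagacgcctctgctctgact

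The Psma2 window holds CCAAT beginning 77 bases before the start and no response element core. The Psmb10 window holds the response element core at 73 and 17 bases before the start, and the Psmb8 window holds it on the other strand beginning 4 bases before the start and running across it. The Psmb9 window has no response element core, and it shares 44 bases with the window of Tap1, the peptide transporter gene that starts 456 bases away. The Tap1 window holds the core on the other strand, beginning 121 bases before the Tap1 start. That place lies between the starts of both genes and outside the Psmb9 window. Of the 42 members with a promoter in the table, 7 held the response element core (16.7%), against 3.92% of all 33469 promoters. CCAAT was in 22 (52.4%) against 37.5% of all promoters, and the antioxidant response motif TGACNNNGC was in 7 (16.7%) against 12.1%. All motifs were searched on both strands and could overlap, and they were chosen after the expression values had been seen. A match describes the letters of the window and says nothing on what binds there.

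Values are log2 signals of a 3′ expression array, on which a difference of 1 is a 2-fold difference. Their precision is limited by the number of arrays. Differences were tested with limma over all 27702 probe sets with a value, and a gene was called at a Benjamini-Hochberg adjusted p under 0.05. The standard errors (SE) and adjusted p given below are from that fit, with 5 rats per diet. The median log2 signal of an array lay between 2.45 and 2.57 on the 1:1 high-isoflavone diet, 2.43 and 2.52 on the 3:1 high-isoflavone diet, 2.51 and 2.56 on the conventional diet, and 2.43 and 2.49 on the casein diet. The log2 ratio of 3′ to 5′ beta-actin signal, a mark of RNA integrity, spanned 1.07 to 2.10, 1.35 to 2.13 and 1.32 to 1.83 on the 3 soybean diets in the same order and 1.29 to 1.53 on the casein diet. Casein rat 5 and 3:1 rat 1 had a higher signal floor than the other 18 arrays. Hepatocyte markers were bright on every array. The mean over 7 of 8 listed genes was 8.22 to 8.5 log2 in the 1:1 rats, 8.42 to 8.68 in the 3:1 rats and 8.10 to 8.41 in the conventional rats, against 8.46 to 8.65 in the casein rats, so the conventional rats lay below all casein rats and so did all 1:1 rats but 1. Of the 7 genes, 4 had lower means than casein on the 1:1 high-isoflavone diet, 3 on the 3:1 and 4 on the conventional diet. Their median differences were -0.04, 0.04 and -0.13 log2. Tat, described below, had the lowest difference on the 1:1 (-1.25 log2) and conventional (-1.20 log2) diets and weighs on the mean. The summed level of the 7 genes ran over 11.99 to 12.15, 12.00 to 12.17, 11.84 to 12.09 and 12.06 to 12.12 log2 in the 1:1, 3:1, conventional and casein rats, with overlap. The part of these markers in the proteasome values was not tested.

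**Figure D1:**
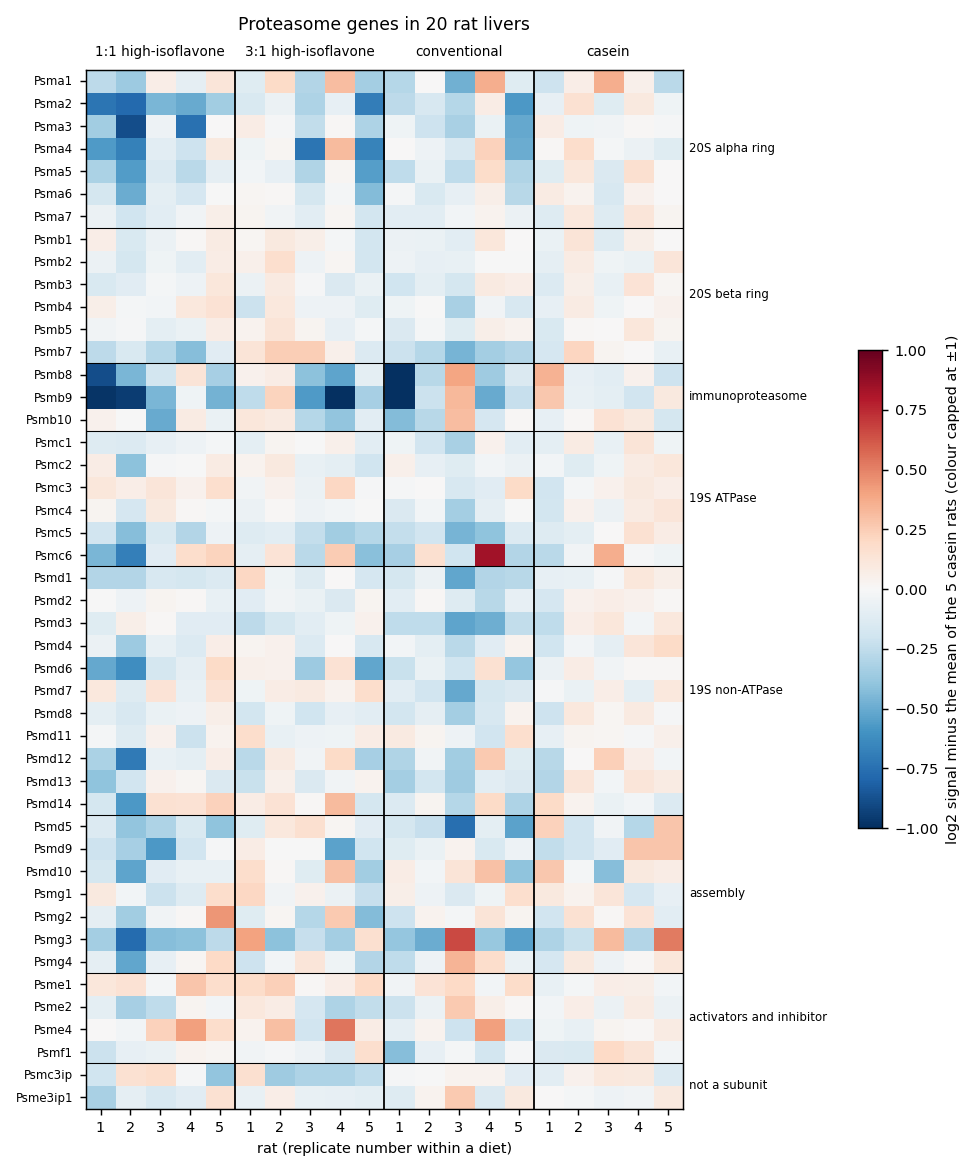
Log2 signal of the 46 genes (rows, grouped by class) in the 20 rats (columns, grouped by diet), minus the mean of the 5 casein rats, with the colour capped at 1 log2 unit in either direction. Blue is lower and red is higher than the casein mean; the alpha ring and Psmb8 and Psmb9 hold most of the darker blue cells, and 1:1 rat 2 is below its diet mean in 39 of the 46 genes.

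Most proteasome messenger RNAs had means slightly below the casein level on each of the 3 soybean diets, and 1 of them passed the test. Against casein, 41 of 46 members had a lower mean on the 1:1 high-isoflavone diet, 35 on the 3:1 high-isoflavone diet and 39 on the conventional diet. The members' median difference from casein was -0.09, -0.06 and -0.10 log2 in the same order, while the median over all 13462 genes was 0.03, 0.01 and 0.05 log2, with 43.3%, 46.2% and 41.5% of genes below 0. The 3 comparisons share the 5 casein rats, so their directions do not count as separate observations. Each of these medians of the members stayed below 0 in the 30 alternative analyses, between -0.19 and -0.06 log2 (1:1), -0.10 and -0.03 (3:1) and -0.20 and -0.06 (conventional). The lowest values came after centring and scaling. Alternatives that changed only the variance model, added the replicate block or omitted a rat of an uncompared diet could not move a difference. They are no test of these medians or of the class medians below, though they could change an adjusted p. Without 3:1 rat 5 the 3:1 median was -0.03 log2 and without casein rat 1 it was -0.09, and without conventional rat 3 the conventional median was -0.06 log2.

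The background of calls sets the scale for these counts. In the comparison of the 1:1 high-isoflavone diet with casein, 2.21% of all probe sets were called at the adjusted threshold, and 1 of 46 members was, Psma2, which was lower. At an unadjusted p under 0.05 the background was 16.8% in either direction and 6.28% for lower alone, and the members had 8 (17.4%), all lower. The 5 rats of each diet did not overlap for 4.45% of probe sets, and with the 1:1 rats lower for 2.08% of probe sets and for 2 members, Psma2 and Psmd1. In the comparison of the conventional diet with casein, 1.64% of probe sets and 0 members were called. At an unadjusted p under 0.05 the background was 16.8% in either direction and 5.5% for lower alone, and the members had 7 (15.2%), all lower. The diets did not overlap for 4.62% of probe sets, and with the conventional rats lower for 1.64% of probe sets and 4 members (Psma3, Psmb7, Psmc5 and Psmd7). In the comparison of the 3:1 high-isoflavone diet with casein, 0.0397% of probe sets and 0 members were called. At an unadjusted p under 0.05 the background was 8.12% (3.28% lower), with 1 member (Psmc5, lower), and without overlap it was 1.81% (0.718% lower), with 0 members. On the 1:1 and conventional diets the members' shares past the unadjusted threshold were thus near the background of both directions together and above that of lower probe sets, while no member passed that threshold with a higher mean.

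**Figure D2:**
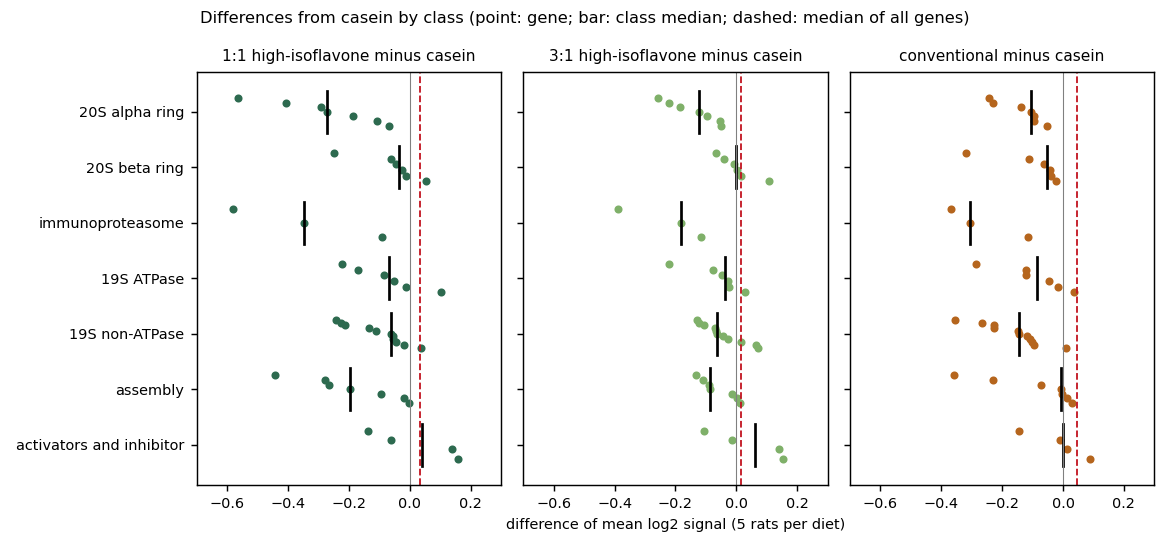
Difference in mean log2 signal between each soybean diet and casein (x axis), 1 panel per diet, with 1 point per gene and a bar at the median of each class. The dashed line is the median over all genes. The alpha ring and the immunoproteasome lie farthest left on the 1:1 high-isoflavone diet, with medians of -0.27 and -0.35 log2, and the beta ring sits near 0.

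The alpha ring forms the ends of the core and its gate. All 7 alpha genes had lower means than casein on each soybean diet, with a median of -0.27 log2 on the 1:1 high-isoflavone diet, -0.12 on the 3:1 high-isoflavone diet and -0.10 on the conventional diet. Over the 30 alternative analyses these medians ranged over -0.36 to -0.20, -0.20 to -0.04 and -0.24 to -0.09 log2. Without 3:1 rat 5 the 3:1 median was -0.04 log2. The conventional median was -0.22 log2 without conventional rat 4, -0.16 without casein rat 1, -0.17 after quantile normalization and -0.24 after centring and scaling. The mean over the 7 genes spanned 4.21 to 4.75 log2 in the 1:1 rats, 4.32 to 4.86 in the 3:1 rats, 4.44 to 4.90 in the conventional rats and 4.72 to 4.86 in the casein rats. The casein rats were thus the tightest group. Of the 1:1 rats 4 were below their range and 1 was inside it, of the 3:1 rats 2 were below and 3 inside, and of the conventional rats 4 were below and rat 4 was above. In whole liver, fewer cells of a type and less RNA per cell cannot be told apart.

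Psma2 codes for the alpha2 subunit. Its log2 signal was 4.58, 4.53, 4.85, 4.80 and 4.96 in the 5 rats of the 1:1 high-isoflavone diet, 5.15, 5.25, 5.00, 5.23 and 4.62 in those of the 3:1 high-isoflavone diet, 5.04, 5.14, 5.02, 5.38 and 4.73 in those of the conventional diet, and 5.22, 5.46, 5.19, 5.40 and 5.26 in those of the casein diet. All 1:1 rats were below all casein rats, while the 3:1 and conventional rats overlapped both. Psma2 fell by 0.56 log2 on the 1:1 high-isoflavone diet relative to casein (95% interval -0.83 to -0.30, SE 0.126, adjusted p = 0.0199), which is a change of -32.4%. On the 3:1 high-isoflavone and conventional diets its differences from casein were -0.26 log2 (adjusted p = 0.627) and -0.24 log2 (adjusted p = 0.337).

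The Psma2 call held in 25 of 30 alternative analyses, with adjusted p between 0.0090 and 0.0870 over all of them. It was lost without the 2 arrays of higher floor (adjusted p = 0.0505), without number 1 of every diet (0.0870), without casein rat 2 (0.0540), without casein rat 4 (0.0545) and without 1:1 rat 2 (0.0693), with a difference between -0.51 and -0.57 log2 in these 5 settings.

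Psma3 was less even between rats. It had 2.94, 2.40, 3.24, 2.54 and 3.30 log2 in the 1:1 rats, 3.37, 3.28, 3.04, 3.30 and 2.98 in the 3:1 rats, 3.25, 3.08, 2.97, 3.22 and 2.78 in the conventional rats and 3.36, 3.25, 3.25, 3.30 and 3.28 in the casein rats. The spread was 0.403 (SD) on the 1:1 high-isoflavone diet and 0.0457 on the casein diet, and its 1:1 difference from casein was -0.41 log2 (SE 0.147, adjusted p = 0.155). The other alpha genes had 1:1 differences between -0.07 log2 (Psma7) and -0.29 log2 (Psma4), none called. Psma4 had means of 3.0 ± 0.322, 3.07 ± 0.458 and 3.19 ± 0.265 log2 on the 1:1, 3:1 and conventional diets against 3.29 ± 0.111 on casein (SD, n = 5 each).

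**Figure D3:**
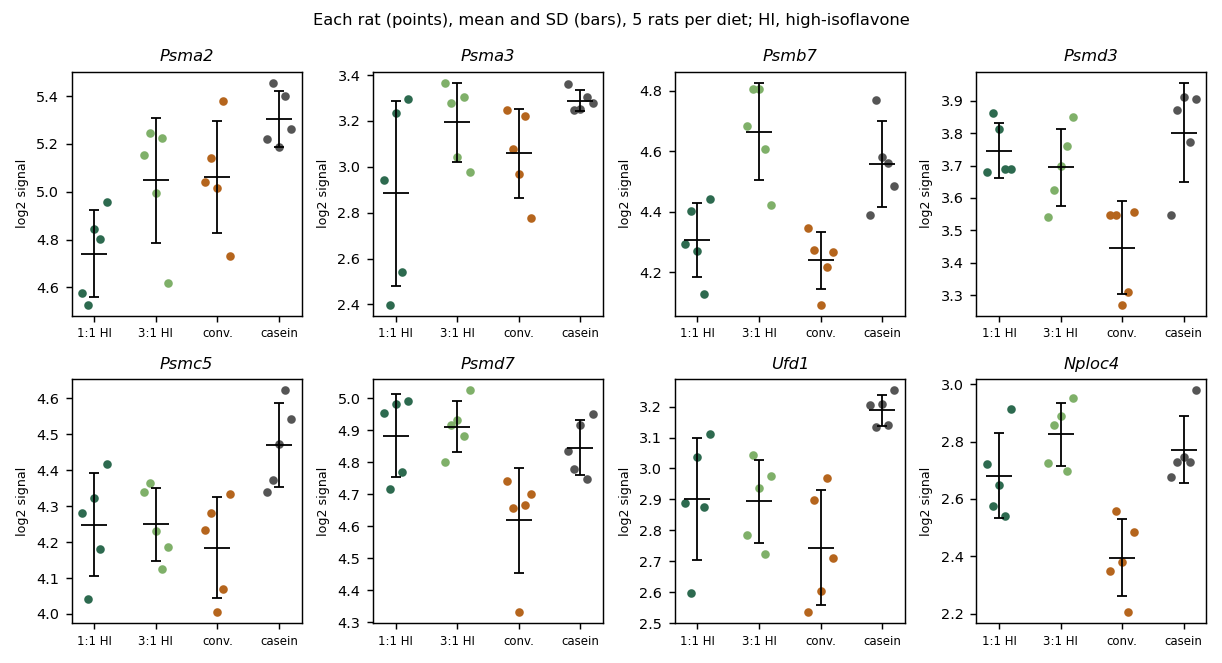
Log2 signal of 6 subunits of the core and cap and of the delivery factors Ufd1 and Nploc4 in each rat (points), with the mean and SD of 5 rats per diet (bars); each panel has its own axis, which does not start at 0. The Psma2 values on the 1:1 high-isoflavone diet are all below the casein values, and the Psmb7 values of the conventional and 1:1 rats sit low beside those of the 3:1 rats.

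The beta ring holds the cutting subunits. Its 6 measured genes had a median difference from casein of -0.04 log2 on the 1:1 high-isoflavone diet (5 of 6 below 0), -0.002 on the 3:1 high-isoflavone diet (3 of 6) and -0.05 on the conventional diet (6 of 6). The 3:1 median changed sign with the scaling of the arrays, to 0.004 log2 after quantile normalization and -0.08 log2 after centring and scaling, and ranged over -0.04 to 0.03 log2 over single omissions. The 1:1 and conventional medians were -0.17 and -0.19 log2 after centring and scaling. Over single omissions they ranged over -0.07 to -0.005 log2 (without casein rats 1 and 4) and -0.09 to -0.03 log2 (without casein rat 1 and conventional rat 1). Psmb1, Psmb2, Psmb3, Psmb4 and Psmb5 differed from casein by between -0.11 and 0.05 log2 on every soybean diet, none called. Psmb5, which carries the chymotrypsin-like activity, had means of 6.53 ± 0.0664, 6.57 ± 0.0775 and 6.52 ± 0.0904 log2 on the 1:1, 3:1 and conventional diets against 6.56 ± 0.0958 on casein (SD, n = 5 each). The 2 other probe sets of Psmb5 differed the other way on the 1:1 high-isoflavone diet (0.30 log2 each, adjusted p = 0.266 and 0.351). They were dim, with means over the 20 arrays of 1.38 and 1.98 log2, below the median signal of every array. The direction of the gene was not settled.

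Psmb7, which carries the trypsin-like activity, differed more from casein than the other beta genes did. Its log2 signal was 4.29, 4.40, 4.27, 4.13 and 4.44 in the 1:1 rats, 4.68, 4.81, 4.81, 4.61 and 4.42 in the 3:1 rats, 4.35, 4.27, 4.09, 4.22 and 4.27 in the conventional rats, and 4.39, 4.77, 4.58, 4.56 and 4.49 in the casein rats. All conventional rats were below all casein rats, and the 1:1 rats overlapped with casein through 2 rats. Its differences from casein were -0.25 log2 on the 1:1 high-isoflavone diet (SE 0.0931, adjusted p = 0.168), 0.11 for the 3:1 high-isoflavone diet (adjusted p = 0.845) and -0.32 on the conventional diet (SE 0.0931, adjusted p = 0.0833). The conventional difference passed the threshold under quantile normalization (-0.37 log2, adjusted p = 0.0398) and under centring and scaling (-0.42 log2, adjusted p = 0.0206).

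The 19S cap consists of the ATPase ring and of subunits that hold scaffolds, ubiquitin receptors and a deubiquitinase. The median over the 17 cap genes was -0.06 log2 on the 1:1 high-isoflavone diet (15 of 17 below 0), -0.05 on the 3:1 high-isoflavone diet (13 of 17) and -0.12 on the conventional diet (15 of 17), and 0 were called. These medians stayed below 0 in the 30 alternative analyses, between -0.18 and -0.04, -0.10 and -0.01, and -0.23 and -0.07 log2. Without casein rat 1 the 1:1 and 3:1 medians were -0.11 and -0.09 log2, and without 1:1 rat 5 the 1:1 median was -0.10. The 3:1 median was -0.03 without casein rat 4, -0.08 without 3:1 rat 2 and -0.01 without 3:1 rat 5, and without conventional rat 3 the conventional median was -0.07. The 6 ATPases had medians of -0.07, -0.04 and -0.08 log2 and the 11 non-ATPase subunits -0.06, -0.06 and -0.14 log2 in the same order of diets.

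Psmd3, a structural subunit of the lid, had 3.68, 3.86, 3.81, 3.69 and 3.69 log2 in the 1:1 rats, 3.54, 3.63, 3.70, 3.76 and 3.85 in the 3:1 rats, 3.55, 3.55, 3.27, 3.31 and 3.56 in the conventional rats and 3.55, 3.87, 3.91, 3.77 and 3.91 in the casein rats. The conventional rats were low, and casein rat 1 was among them. The conventional difference from casein was -0.35 log2 (SE 0.0933, adjusted p = 0.0555). It passed the threshold in 6 of 30 alternative analyses, among them quantile normalization (-0.43 log2, adjusted p = 0.0149), centring and scaling (-0.44 log2, adjusted p = 0.0094), omission of number 1 of every diet (-0.44 log2, adjusted p = 0.0350) and omission of casein rat 1 alone (-0.42 log2, adjusted p = 0.0246).

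Psmc5, an ATPase of the ring, had 4.28, 4.04, 4.32, 4.18 and 4.42 log2 in the 1:1 rats, 4.34, 4.37, 4.23, 4.12 and 4.19 in the 3:1 rats, 4.23, 4.28, 4.01, 4.07 and 4.33 in the conventional rats, and 4.34, 4.37, 4.47, 4.62 and 4.54 in the casein rats. The conventional rats lay just below the casein rats, and the other soybean diets overlapped with casein. The differences from casein were -0.22 log2 on the 1:1 high-isoflavone diet (adjusted p = 0.214), -0.22 on the 3:1 high-isoflavone diet (adjusted p = 0.538) and -0.29 on the conventional diet (adjusted p = 0.111). The last passed the threshold only under centring and scaling (-0.39 log2, adjusted p = 0.0364).

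Psmd7, the partner of the deubiquitinase Psmd14 in the lid, had 4.95, 4.72, 4.98, 4.77 and 4.99 log2 in the 1:1 rats, 4.80, 4.92, 4.93, 4.88 and 5.02 in the 3:1 rats, 4.74, 4.66, 4.33, 4.67 and 4.70 in the conventional rats and 4.84, 4.78, 4.92, 4.75 and 4.95 in the casein rats. The conventional rats were below every casein rat, narrowly for all but rat 3, and its difference was -0.23 log2 (SE 0.0872, adjusted p = 0.187). The other probe set of Psmd7 differed from casein by -0.15 log2 on the conventional diet (adjusted p = 0.344) and by -0.14 log2 on the 1:1 high-isoflavone diet (adjusted p = 0.378). Psmd14 itself differed by -0.10 log2 (adjusted p = 0.743) on the conventional diet. Its other probe sets differed there by 0.16 and -0.15 log2 (adjusted p = 0.700 and 0.594), so its direction was not settled. Psmd1, a large scaffold of the base, had means of 3.91 ± 0.0763, 4.10 ± 0.147 and 3.86 ± 0.169 log2 on the 1:1, 3:1 and conventional diets against 4.12 ± 0.0837 on casein (SD, n = 5 each), and its differences of -0.21 (1:1) and -0.27 (conventional) log2 were not called (adjusted p = 0.240 and 0.138). The other scaffold, Psmd2, and the ubiquitin receptor Psmd4 differed from casein by between -0.12 and -0.02 log2 on every soybean diet, none called. Psmc6 had 2 other probe sets, with 1:1 differences of -0.23 and -0.68 log2, against -0.17 log2 for the one used, none called.

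As a class, the immunoproteasome genes were the most variable between rats of the same diet, with a median within-diet SD of 0.376 log2. It was 0.206 for the alpha ring, 0.0999 for the beta ring, 0.127 for the cap, 0.209 for the assembly factors and 0.218 for all genes. This rests on Psmb8 (0.376) and Psmb9 (0.419), while Psmb10 had 0.227, and Psmg3 of the assembly factors had 0.375. Their 3 means were below casein on each soybean diet, by a median of -0.35 log2 on the 1:1 high-isoflavone diet, -0.18 on the 3:1 high-isoflavone diet and -0.31 on the conventional diet, and 0 were called. Without number 1 of every diet these medians were -0.14, -0.19 and -0.05 log2. The 1:1 median was -0.21 log2 without 1:1 rat 1, the 3:1 median was -0.10 without 3:1 rat 4 and -0.29 without the 2 arrays of higher floor, and the conventional median was -0.10 without conventional rat 1 and -0.48 without conventional rat 3.

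Psmb9 had 4.37, 4.40, 4.89, 5.30 and 4.88 log2 in the 1:1 rats, 5.10, 5.57, 4.78, 4.33 and 5.02 in the 3:1 rats, 4.14, 5.13, 5.67, 4.85 and 5.12 in the conventional rats and 5.62, 5.27, 5.25, 5.16 and 5.45 in the casein rats. The casein rats were uniformly high, at 5.16 log2 or above. The highest rat of each soybean diet reached that level, with 5.30 (1:1), 5.57 (3:1) and 5.67 (conventional) log2. The lowest had 4.37, 4.33 and 4.14 log2 in the same order, and the remaining rats lay between. The differences from casein were -0.58 log2 on the 1:1 high-isoflavone diet (SE 0.237, adjusted p = 0.210), -0.39 for the 3:1 high-isoflavone diet (adjusted p = 0.735) and -0.37 on the conventional diet (adjusted p = 0.443).

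Psmb8 had 4.96, 5.39, 5.67, 5.97 and 5.52 log2 in the 1:1 rats, 5.89, 5.92, 5.43, 5.32 and 5.75 in the 3:1 rats, 4.70, 5.57, 6.24, 5.49 and 5.70 in the conventional rats, and 6.19, 5.77, 5.74, 5.89 and 5.64 in the casein rats. All diets overlapped, and conventional rats 1 and 3 held the lowest and the highest value of the 20 rats. The differences were -0.35 log2 on the 1:1 high-isoflavone diet, -0.18 on the 3:1 high-isoflavone diet and -0.31 on the conventional diet (adjusted p = 0.444, 0.901 and 0.481). Psmb10 had means of 3.74 ± 0.238, 3.71 ± 0.224 and 3.72 ± 0.286 log2 on the 1:1, 3:1 and conventional diets against 3.83 ± 0.13 on casein (SD, n = 5 each), with all differences between -0.09 and -0.12 log2 and none called.

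**Figure D4:**
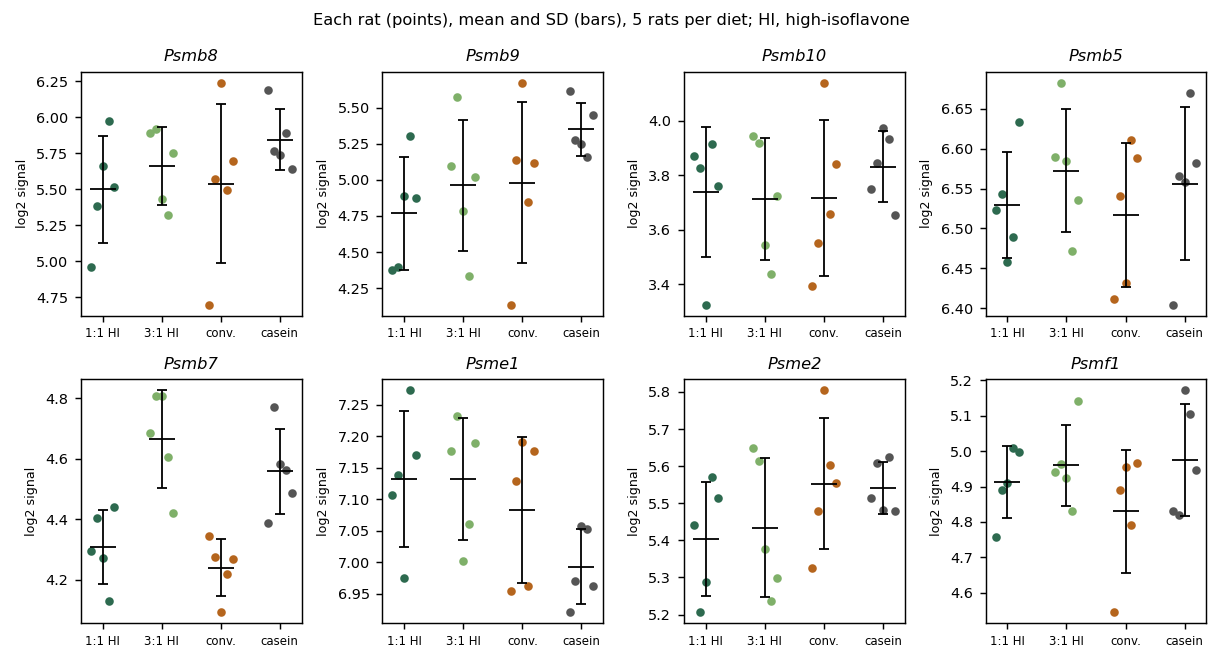
Log2 signal of the 3 immunoproteasome subunits, of the standard subunits Psmb5 and Psmb7, and of the regulators Psme1, Psme2 and Psmf1 in each rat (points), with the mean and SD of 5 rats per diet (bars); each panel has its own axis, which does not start at 0. Psmb8 and Psmb9 spread over more than 1 log2 unit in the conventional rats, while Psmb5 spans 6.40 to 6.68 log2 over all 20 rats.

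Markers of other liver cells are given beside these values. The 10 measured of 12 listed macrophage markers had a mean level of 4.02 to 4.30 log2 in the 1:1 rats, 4.35 to 4.53 in the 3:1 rats, 4.19 to 5.06 in the conventional rats and 4.20 to 4.65 in the casein rats, and their summed level ran over 7.86 to 8.10, 8.15 to 8.33, 8.04 to 8.81 and 8.03 to 8.52 log2 in the same order. All 10 had lower means on the 1:1 high-isoflavone diet than on casein, by a median of -0.32 log2, with 0 called and 5 at an unadjusted p under 0.05. On the 3:1 and conventional diets 8 and 7 of the 10 were lower, by medians of -0.07 and -0.11 log2. Conventional rat 3, highest of the 20 for Psmb8 and Psmb9, also had the highest macrophage marker level (5.06 log2). Casein rat 1, the highest casein rat for both genes (0.347 and 0.268 log2 above their diet means), had the highest marker level of the casein rats (4.65 log2). Some other rats did not match in this way. Conventional rat 1, lowest for both genes, had 4.24 log2, beside 4.19 and 4.25 in conventional rats 4 and 5. The lowest marker level was in 1:1 rat 3 (4.02 log2), where Psmb8 and Psmb9 were 0.165 and 0.121 log2 above their diet means. The 10 measured lymphocyte markers had mean levels of 2.57 to 2.88, 2.50 to 2.81, 2.74 to 2.93 and 2.45 to 2.75 log2 in the same order, with median differences from casein of 0.12, 0.08 and 0.22 log2, and 0 were called. The 6 endothelial markers had median differences of 0.05, 0.03 and 0.02 log2. No measured marker was listed at 0, and the part of these cells in the immunoproteasome values was not tested.

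Within diets, Psmb8 and Psmb9 varied together from rat to rat. With the diet means removed, Pearson's r over the 20 rats was 0.907 and Spearman's rho 0.884 (permutation test within diets, two-sided, adjusted p = 6e-05 and 0.00012 over 6 pairs, the raw p of r being the smallest that 100000 permutations can give), and r was 0.856 without the 2 rats farthest from the median of Psmb8. Psmb10 followed less closely, with r = 0.552 with Psmb8 and r = 0.532 with Psmb9 (rho 0.498 and 0.426, adjusted permutation p = 0.0772 for both r). Psmb9 and Psme2, the interferon-inducible activator subunit, had r = 0.711 (rho 0.567, adjusted permutation p = 0.0155 for r and 0.0793 for rho), which was 0.546 (adjusted permutation p = 0.0899) without the 2 rats farthest from the median of Psmb9, so that relation rests on them. Psmb9 and Tap1 had r = 0.359 and rho 0.441 (adjusted permutation p = 0.130 and 0.0833). The mean of 25 class I presentation and interferon genes was read after the values were seen. Within diets it was lowest in conventional rat 1 (3.62 log2), 1:1 rat 1 (3.59) and 3:1 rat 4 (3.81). It was highest in conventional rat 3 (4.08), 1:1 rat 4 (4.06) and 3:1 rat 2 (4.08). The same rats were extreme for Psmb9. On casein it was highest in rat 3 (4.04) and Psmb9 in rat 1, and the relation was not tested. The standard subunit Psmb5 and its replacement Psmb8 had r = 0.032 and rho 0.024 (adjusted permutation p = 0.909 and 0.927).

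**Figure D5:**
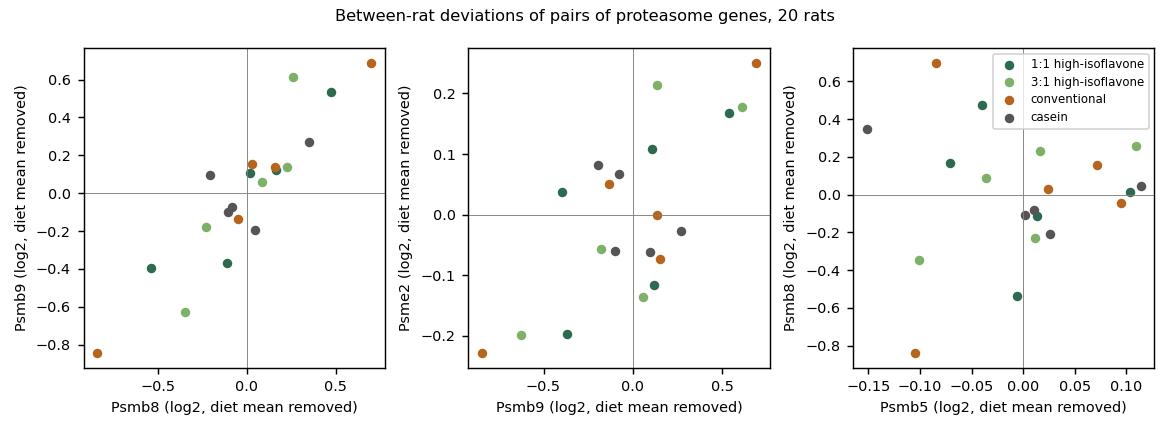
Deviation of each of the 20 rats from its diet mean (log2) for 3 pairs of genes, with 1 point per rat coloured by diet. Psmb8 and Psmb9 lie along a line (r = 0.907), Psmb9 and Psme2 do so more loosely (r = 0.711), and Psmb5 and Psmb8 show no line (r = 0.032).

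The activators open the gate of the core in place of the cap, and Psmf1 codes for PI31, known as an inhibitor of the core. Psme1, an interferon-inducible activator subunit, had means of 7.13 ± 0.108, 7.13 ± 0.0964 and 7.08 ± 0.116 log2 on the 1:1, 3:1 and conventional diets against 6.99 ± 0.0599 on casein (SD, n = 5 each). These differences of 0.14, 0.14 and 0.09 log2 were not called (adjusted p = 0.347, 0.665 and 0.555), and under centring and scaling they were -0.02 and -0.06 log2 on the 1:1 and conventional diets. Its partner Psme2 differed from casein by -0.14, -0.11 and 0.01 log2, Psme4, the activator PA200, by 0.16, 0.15 and -0.01 log2, and Psmf1 by -0.06, -0.01 and -0.15 log2, none called. The median over these 4 genes was 0.04, 0.06 and 0.001 log2 and took the other sign under centring and scaling (-0.09, -0.01 and -0.10 log2). Single omissions moved these medians over 0.004 to 0.07, 0.03 to 0.10 and -0.06 to 0.04 log2. Another probe set of Psme4 differed from casein by -0.09, -0.01 and -0.20 log2 and a further one by 0.23, 0.04 and 0.06 log2, none called. The direction of Psme4 was not settled.

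The assembly factors build the complex and are not part of the finished one. Psmg1 to Psmg4 are chaperones of the alpha ring, and Psmd5, Psmd9 and Psmd10 are chaperones of the base of the cap. Their 7 genes had medians of -0.20 log2 on the 1:1 high-isoflavone diet (7 of 7 below casein), -0.09 on the 3:1 high-isoflavone diet (5 of 7) and -0.01 on the conventional diet (5 of 7), with 0 called. The 1:1 median was between -0.29 and -0.10 log2 over the 30 alternative analyses, with -0.11 without 1:1 rat 2 and -0.10 on the mean of each gene's probe sets. The 3:1 median was between -0.13 (without casein rat 1) and -0.01 log2 (without 3:1 rat 2), and omission of 3:1 rats 3, 4 or 5 or casein rat 5 also brought it to between -0.05 and -0.03. The conventional median had no settled sign, with -0.11 log2 after centring and scaling and 0.006 without casein rat 2. Psmd5 had 3.50, 3.24, 3.33, 3.48 and 3.24 log2 in the 1:1 rats, 3.52, 3.75, 3.80, 3.66 and 3.53 in the 3:1 rats, 3.46, 3.41, 2.89, 3.54 and 3.10 in the conventional rats, and 3.87, 3.45, 3.61, 3.35 and 3.92 in the casein rats. The 1:1 rats were below all 3:1 rats, and the 1:1 and conventional diets both overlapped with casein, with differences of -0.28 log2 on the 1:1 high-isoflavone diet (adjusted p = 0.278) and -0.36 log2 (adjusted p = 0.159) on the conventional diet.

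Psmg3 had means of 2.25 ± 0.194, 2.61 ± 0.35 and 2.47 ± 0.502 log2 on the 1:1, 3:1 and conventional diets against 2.69 ± 0.387 on casein (SD, n = 5 each), and its 1:1 difference of -0.44 log2 was within that spread (SE 0.216, adjusted p = 0.311). Psmd9 differed by -0.26 log2 (adjusted p = 0.317) and Psmd10 by -0.20 log2 (adjusted p = 0.554) between the 1:1 rats and casein, and the other probe set of Psmd9 differed by 0.13 log2, none called. Psmg1, Psmg2 and Psmg4 had 1:1 differences of -0.02, -0.002 and -0.10 log2.

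Genes of the same ring varied together between rats of 1 diet, a pattern looked for after the values had been seen and given as a description. With diet means removed, the median correlation between 2 alpha genes over the 20 rats was 0.691, with all 21 pairs above 0, against 0.50 for the beta ring (15 of 15), 0.552 for the immunoproteasome (3 of 3), 0.383 for the cap (118 of 136), 0.042 for the assembly factors (12 of 21) and 0.010 over pairs of all genes. The points share their array, so brightness and RNA quality of a rat enter every pair. The closest pairs were Psma4 with Psmd6 (r = 0.925), Psma2 with Psma5 (0.924), Psmb8 with Psmb9 (0.907) and Psma2 with Psmd6 (0.901). Psmd6, a lid subunit, followed the mean of the alpha genes at r = 0.938, while Psmd3 and Psmd2 of the same cap had r = -0.336 and -0.338 with it, and Psmb8 and Psmb9 had -0.021 and -0.005.

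Single rats carried much of this variation. The mean of the alpha genes deviated from the diet mean by -0.312 log2 in 3:1 rat 5 and by -0.295 log2 in 1:1 rat 2, with 7 of 7 genes low in both. It deviated by 0.263 log2 in conventional rat 4 and by 0.248 log2 in 1:1 rat 5. The beta-actin 3′ to 5′ log2 ratios of these rats were 1.35, 1.33, 1.76 and 2.10 in that order, and over the 20 rats, diet means removed, this ratio and the alpha mean had r = 0.438, chosen after the values were seen. The part of RNA quality in the alpha values was not tested. For the immunoproteasome the extremes were other rats: the mean of its 3 genes deviated by -0.669 log2 in conventional rat 1, 0.603 in conventional rat 3, -0.416 in 3:1 rat 4 and 0.394 in 1:1 rat 4.

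Between the soybean cultivars in equal parts with casein, no member was called. In the comparison of the 1:1 high-isoflavone with the conventional diet 0.0758% of probe sets and 0 members were called. At an unadjusted p under 0.05 the background was 7.07% (4.09% lower and 2.98% higher), with 1 member lower (Psma2) and 3 higher (Psmb4, Psmd3 and Psmd7). Without overlap it was 1.4% (0.83% lower and 0.567% higher), with 1 member (Psmd3, higher). The members' median difference was -0.004 log2 (24 of 46 below 0) against -0.010 over all genes, and it ranged over -0.04 to 0.02 log2 in the 30 alternative analyses. The alpha ring had a median of -0.13 log2 (7 of 7 below 0), which was -0.05 without conventional rat 4 or 1:1 rat 2. The cap had 0.06 log2 (6 of 17 below 0), which was 0.01 without conventional rat 3, 0.09 without conventional rat 2, 0.02 without 1:1 rat 5 and 0.10 without 1:1 rat 2. Psmd3 averaged 3.75 ± 0.0842 log2 on the 1:1 high-isoflavone diet and 3.45 ± 0.143 on the conventional diet (SD, n = 5 each), a difference of 0.30 log2 (SE 0.0933, adjusted p = 0.415). Psmd7 differed by 0.26 log2 (adjusted p = 0.471), Psma2 by -0.32 log2 (adjusted p = 0.602) and Psmb4 by 0.16 log2 (adjusted p = 0.676). The other probe set of Psmd7 differed by 0.006 log2 (adjusted p = 0.995) and did not repeat its higher value.

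Between the 1:1 and 3:1 high-isoflavone diets, 0% of probe sets and 0 members were called. At an unadjusted p under 0.05 limma gave 7.22% of probe sets (2000; 3.16% lower) and 4 members, all lower (Psma2, Psma3, Psmb7 and Psmd5), and the rats did not overlap for 1.14% of probe sets (0.502% lower) and 1 member (Psmd5, lower). The members' median was -0.06 log2 (35 of 46 below 0) against 0.02 over all genes, and the alpha ring's was -0.07 log2 (7 of 7 below 0). Neither sign held throughout: without 1:1 rat 2 the medians were 0.001 and 0.008 log2, and over the 30 alternative analyses they went as low as -0.10 and -0.18 log2. Psmb7 averaged 4.31 ± 0.123 log2 on the 1:1 high-isoflavone diet and 4.67 ± 0.16 on the 3:1 high-isoflavone diet (SD, n = 5 each), a difference of -0.36 log2 (SE 0.0931, adjusted p = 0.464). Psma2 and Psma3 each differed by -0.31 log2 (adjusted p = 0.647 and 0.688) and Psmd5 by -0.29 log2 (adjusted p = 0.663).

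The 4 lists of neighbouring genes were set beside the members, against casein. Ubiquitin supply (21 of 29 measured) had medians of -0.04, 0.02 and -0.07 log2 on the 1:1, 3:1 and conventional diets, with 12, 10 and 17 genes below 0 and 0 called. Transcriptional control of proteasome genes, with Nfe2l1 and its partners, had all 16 listed genes measured, 8, 8 and 9 of them below 0 and 0 called. Class I presentation and interferon signalling (25 of 28 measured) had medians of -0.12, -0.11 and -0.04 log2, with 16, 15 and 17 below 0 and 0 called. Delivery and proteasome-bound factors (22 of 27 measured) had medians of -0.07, -0.01 and -0.06 log2, with 14, 13 and 18 below 0, and 2 were called, both lower on the conventional diet.

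The called genes were Ufd1 and Nploc4, which code for the paired cofactors that lead ubiquitin-tagged proteins to the unfolding ATPase Vcp upstream of the proteasome. Ufd1 had 2.54, 2.90, 2.60, 2.97 and 2.71 log2 in the conventional rats against 3.21, 3.13, 3.21, 3.14 and 3.25 in the casein rats, with no overlap. It fell by 0.45 log2 (SE 0.106, adjusted p = 0.0378), held the call in 19 of 30 alternative analyses, and its other probe set differed by -0.28 log2 (adjusted p = 0.0895). Single omissions that ended the Ufd1 call were any of the 5 casein rats (adjusted p up to 0.0934) and conventional rats 1, 3 and 5 (adjusted p up to 0.0841). The 1:1 rats had 2.89, 2.60, 3.04, 2.88 and 3.11 log2, also below the casein rats, with a difference of -0.29 log2 (adjusted p = 0.166). The 3:1 rats had 2.78, 3.05, 2.94, 2.72 and 2.98 log2, below the casein rats too, with a difference of -0.30 log2 (adjusted p = 0.448). The other probe set differed from casein by -0.27 log2 (1:1) and -0.08 log2 (3:1), with adjusted p = 0.0999 and 0.885.

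Nploc4 had 2.35, 2.56, 2.38, 2.21 and 2.49 log2 in the conventional rats against 2.68, 2.73, 2.74, 2.73 and 2.98 in the casein rats, again with no overlap. It fell by 0.38 log2 (SE 0.0965, adjusted p = 0.0494), but the call held in 5 of 30 alternative analyses and ended in 19 of the 20 single omissions (adjusted p up to 0.131). The other probe set of Nploc4 differed by 0.14 log2 (adjusted p = 0.825), and the mean of both by -0.12 log2. Vcp, looked up after these values were seen, differed by -0.20 log2 (SE 0.0710, adjusted p = 0.152) on the conventional diet.

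Among the hepatocyte markers 1 gene was called, Tat, the tyrosine aminotransferase, an enzyme of amino acid breakdown. It had 3.92, 3.49, 4.40, 3.0 and 3.67 log2 in the 1:1 rats and 4.18, 4.05, 2.48, 4.28 and 3.73 in the conventional rats, against 5.03, 4.27, 4.80, 5.16 and 5.47 in the casein rats. It fell by 1.25 log2 on the 1:1 high-isoflavone diet (SE 0.305, adjusted p = 0.0331, held in 23 of 30 alternative analyses) and by 1.20 log2 on the conventional diet (adjusted p = 0.0487, held in 11 of 30). Single omissions that ended the 1:1 call were casein rats 1, 4 and 5 and 1:1 rats 2 and 4 (adjusted p between 0.0629 and 0.0969), and the conventional call ended in 14 of the 20 single omissions (adjusted p up to 0.124).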

How the data were processed

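Liver RNA of 20 rats, 5 per diet, was measured on 1 Affymetrix 3′ array per rat. Per the labels, the authors normalized the deposited values with the SuperNORM service. The log10 scale of the deposited values was inferred, since no label states it: the spike-in controls had a slope of 0.998 log10 units per log10 unit (SD 0.0236, 20 arrays). Values were multiplied by 3.3219 to give log2. Titles were matched to diets by their wording. The sources used here do not give whether the rats had fasted.

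Of 31099 probe sets, 57 controls and 3342 without values (2 in both) were left out, leaving 27702, of which 19147 had 1 symbol. The limma 3.58.1 fit in R 4.3.3 had 1 mean per diet over all 20 arrays, with eBayes and a trend, two-sided, and Benjamini-Hochberg adjustment over the 27702 probe sets. Correlations used Python 3.11.15 with scipy 1.17.1 and 100000 permutations within diets. The scripts were tested on simulated data.

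Named genes were those called, the 3 with the smallest p per comparison, the immunoproteasome, regulator and assembly genes, and list genes that were called. A planned naming of the highest and lowest members was not made, because levels of different probes cannot be compared. The members, lists and alternatives were chosen with earlier results of these data known. The alternatives were other scalings, variance models and filters, the mean of a gene's probe sets, the replicate number as a block, and omission of arrays. RefSeq promoters of GRCr8 were matched by symbol.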

Additional observations from a re-analysis of the deposited data

Results flagged for a closer look

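In 8 of 184 groups of 5 rats (46 genes in 4 diets), 1 rat stood so far from the other 4 that its gap exceeded 0.71 of the group's whole range. Chance flags about 1 in 20 such groups, and here it was 4.35%. Psmb10 had 3.32 log2 in 1:1 rat 3, against 3.76 to 3.91 in the other 1:1 rats. Psmc2 had 5.36 log2 in 1:1 rat 2 (others 5.75 to 5.85) and Psmd10 had 2.22 log2 in the same rat (others 2.57 to 2.68), which was also the rat with 39 of 46 genes below its diet mean. Psmd7 had 4.33 log2 in conventional rat 3 (others 4.66 to 4.74), so its gap to casein rests partly on that rat, while Psmg3 had 3.36 log2 in the same rat (others 2.15 to 2.31) and was high there. Psmd2 had 4.89 log2 in casein rat 1 (others 5.07 to 5.12). Of the genes that are no subunit, Psmc3ip had 1.56 log2 in 3:1 rat 1 (others 1.04 to 1.14), one of the 2 arrays of higher floor, and Psme3ip1 had 2.80 log2 in 3:1 rat 2 (others 2.63 to 2.66).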

How the results depend on the processing

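The alternatives were run for all named genes against casein and, between the soybean diets, for the 3 members of smallest p. On the conventional diet, 0 members were called against casein; the count was 2 after quantile normalization, 3 after centring and scaling (Psmd3, Psmb7 and Psmc5), 1 without dim probe sets, 1 with the mean of a gene's probe sets, 1 without number 1 of all diets, and 0 to 1 over single omissions. On the 1:1 high-isoflavone diet, the count of 1 (Psma2) was 0 without the 2 higher-floor arrays, 0 without number 1 of all diets, and 0 to 1 over single omissions. The cause of these changes was not tested. In the other 3 comparisons the count stayed at 0 in the alternatives run.

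Uncalled differences near 0 changed sign in some settings (log2, against casein). With the mean of probe sets per gene, which for Psmb5 takes in its dim probe sets, Psmb5 was 0.13 (conventional) and 0.19 (1:1). In that setting Psmd9 was 0.054 (conventional). Centring and scaling gave Psme1 -0.063, Psme2 -0.11, Psmg4 -0.067 and Psmd10 -0.067 on the conventional diet, Psme1 -0.016 on the 1:1 diet, and Psmb5 -0.065, Psmd5 -0.030 and Psmd10 -0.021 on the 3:1 diet. Quantile normalization gave Psmg4 -0.045 and Psmd10 -0.057 (conventional), and Psmd5 -0.027 and Psmd10 -0.017 (3:1). Without the 2 higher-floor arrays Psme2 was -0.0039 and Psme4 0.0099 (conventional) and Psmd10 -0.023 (3:1), and without number 1 of all diets Psmg1 was 0.0047 (conventional) and Psmb5 -0.026 (3:1).

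Over single omissions, the conventional differences ranged over -0.051 to 0.069 for Psme2, -0.115 to 0.039 for Psme4, -0.046 to 0.033 for Psmg1, -0.056 to 0.042 for Psmg2, -0.050 to 0.100 for Psmg4 and -0.094 to 0.117 for Psmd10. The 1:1 differences ranged over -0.135 to 0.012 for Psmb10, -0.065 to 0.0016 for Psmb5, -0.068 to 0.030 for Psmg1, -0.114 to 0.083 for Psmg2 and -0.169 to 0.011 for Psmg4. The 3:1 differences ranged over -0.022 to 0.045 for Psmb5, -0.060 to 0.035 for Psmf1, -0.070 to 0.039 for Psmg1, -0.207 to 0.043 for Psmg3, -0.060 to 0.080 for Psmd5 and -0.106 to 0.089 for Psmd10.

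Without the 2 farthest rats, r was 0.546 for Psmb9 with Psme2 and -0.096 for Psmb5 with Psmb8. After quantile normalization r was 0.606 for Psmb8 with Psmb10 and 0.590 for Psmb9 with Psmb10 (adjusted permutation p = 0.0425). Single omissions, added after seeing the data, gave 0.386 to 0.721 for Psmb8 with Psmb10, 0.387 to 0.670 for Psmb9 with Psmb10, 0.634 to 0.758 for Psmb9 with Psme2, 0.245 to 0.549 for Psmb9 with Tap1 and -0.256 to 0.220 for Psmb5 with Psmb8.

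The labels tie no number to a litter or day. Rats numbered 1 deviated together in all 5 comparisons (correlations 0.205 to 0.401), the other numbers did not do so throughout (-0.163 to 0.221), and 7 of 20 arrays correlated best with their own number, so the numbers were not taken to pair the rats. With the replicate block, adjusted p was 0.0183 for Psma2 (1:1) and 0.0561 for Psmd3, 0.0464 for Ufd1 and 0.0285 for Nploc4 (conventional). Over all probe sets, the conventional calls (453, 281 higher and 172 lower) were 548 after quantile normalization (194 and 354) and 630 after centring (158 and 472), 114 without the higher-floor arrays and 120 to 499 over single omissions. The 1:1 calls (613, 317 higher and 296 lower) were 609 (235 and 374), 651 (180 and 471), 312 and 296 to 716 in the same settings, 380 without number 1 and 383 on gene means. The 3:1 calls (11) ranged over 1 to 26, with 23 under the block, and the 1:1 against conventional calls (21) over 11 to 31.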
